A study of Mus musculus with 9 samples.

Results

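The SR proteins and the heterogeneous nuclear ribonucleoproteins (hnRNPs) are the main families of RNA-binding proteins that choose splice sites, and the levels of their genes were described in mouse extra-embryonic endoderm stem (XEN) cells with and without deletions upstream of Xist. The members were the protein-coding genes whose mouse symbol starts with Srsf or Hnrnp. Of 55401 genes in the count table, 33 carried such a symbol, and 29 were kept: 11 SR genes and 18 hnRNP genes. The 2 pseudogenes and 2 protein-coding hnRNP genes named as exceptions by the rule were left out. All 29 members passed the filter on low counts, Srsf12 only through the libraries with a deletion.

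RNA was sequenced from female XEN cells of a cross between Mus musculus molossinus and Mus musculus. The labels give total RNA and name no selection of it before sequencing. The 3 groups were 3 libraries of wild-type genotype titled WT_EV (EV is not explained in the labels), 2 libraries with the deletion on the paternal X (DXp, titled D1) and 2 with the deletion on both X chromosomes (DXp_DXm, titled D3). The cells of all 3 groups shared the line, the cross and the culture medium. Each deletion genotype carried 1 title prefix, so that genotype and clone cannot be told apart, and the labels describe the 2 libraries of each deletion as biological replicates but say nothing of separate cultures for WT_EV. If replicates are technical, the p-values speak only to the spread among libraries.

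SR proteins combine RNA recognition motifs with a tail rich in arginine and serine, bind mostly to enhancer sequences in exons, and recruit U1 and U2AF to the neighbouring splice sites. The hnRNPs coat nascent transcripts, and many of them silence exons or splice sites, so that the balance of the families sets the use of many alternative exons. Genes of both families control their own output through poison exons, whose inclusion sends the transcript to nonsense-mediated decay, and a count per gene does not separate such transcripts from the productive ones. Both families also have processed pseudogenes elsewhere in the genome, and no source used here gives how reads that map to several places were counted.

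The 7 libraries held 14352719 to 29335803 counts on genes. Levels are given as CPM, counts scaled to a common library size with TMM factors, and changes as log2 differences from edgeR's quasi-likelihood fit over 15331 genes, with p-values adjusted over all of these genes and a threshold of 0.05. The WT_EV libraries and the 4 deletion libraries also differed in kinds of RNA other than the members: histone genes took 0.984% to 2.47% of the reads counted for WT_EV, against 0.00129% to 0.00686% in the other 4, and Rn7sk, a short nuclear RNA, had 157188 to 255029 counts against 2 to 7. Whether this difference contributed to the changes below was not tested. Xist stood at 689 to 1562 CPM in WT_EV, at 15447 and 17314 CPM in DXp and at 5460 and 8951 CPM in DXp_DXm, which checks no label, since the deletion lies upstream of the gene and its ends are not given. Of 10 markers of extra-embryonic endoderm, 10 reached 1 CPM in every WT_EV and DXp_DXm library and 9 in the DXp libraries, where Col4a1 had 0 counts in replicate 1. Their summed level was 21317 to 28882 CPM in WT_EV, 7425 to 17109 CPM in DXp and 11224 to 14152 CPM in DXp_DXm. Summed levels of 6 markers each stayed at or below 3.75 CPM for pluripotent cells, 1.85 CPM for trophoblast and 0.102 CPM for fibroblasts, with Pou5f1 at 0 in all deletion libraries, Tfap2c and Hand1 at 0 in all 7 libraries, and Col3a1 and Thy1 at 0 in all 7.

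The members differed in base composition, on which several of the results below turn. The GC content of the longest annotated transcript (GENCODE M21) ran from 39.9% in Hnrnpa3 to 56.8% in Srsf4, with a median of 45.0% against 49.1% over all genes tested. The first 120 coding bases of 4 members, taken from the GENCODE transcripts on GRCm38, are shown with the start codon in capitals. They are an SR pair and an hnRNP pair, the lowest and highest of each family in transcript GC content. The bases shown are not themselves the extremes. Their GC content was 44.2% in Hnrnpa3 and 63.3% in Hnrnpa0, against 37.5% in Hnrnpa2b1 and 80.8% in Hnrnpd. Srsf3 (chr17:29032628-29043373, plus strand) and Hnrnpa3 (chr2:75659261-75669407, plus strand) are the AT-rich genes of these pairs, and Srsf4 (chr4:131873617-131901706, plus strand) and Hnrnpa0 (chr13:58125879-58128556, minus strand) the GC-rich ones.
Srsf3: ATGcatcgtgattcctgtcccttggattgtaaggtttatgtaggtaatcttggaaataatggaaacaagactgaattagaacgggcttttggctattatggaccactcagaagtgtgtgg
Srsf4: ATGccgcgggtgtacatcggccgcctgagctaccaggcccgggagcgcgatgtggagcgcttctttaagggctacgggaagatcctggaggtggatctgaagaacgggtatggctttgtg
Hnrnpa3: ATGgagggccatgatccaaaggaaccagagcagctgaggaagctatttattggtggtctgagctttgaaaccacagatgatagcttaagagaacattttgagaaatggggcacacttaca
Hnrnpa0: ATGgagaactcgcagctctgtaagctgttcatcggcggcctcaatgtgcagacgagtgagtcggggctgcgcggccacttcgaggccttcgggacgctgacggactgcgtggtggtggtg
GC at the third codon positions was 36.4% in Srsf3 and 66.5% in Srsf4 over the whole coding sequence, and 28.8% in Hnrnpa3 and 93.8% in Hnrnpa0. Srsf3 links splicing with mRNA export, Srsf4 is one with a long arginine-serine tail, and Hnrnpa3 and Hnrnpa0 belong to the A/B class of hnRNPs, of which Hnrnpa1 is the best known exon silencer.

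Per length of annotated exon, SR genes in WT_EV ranged from 0.0376 ± 0.0174 CPM per kb (SD, n = 3) for Srsf12 to 119 ± 12.0 CPM per kb for Srsf5. Srsf2, a nuclear SR protein of nuclear speckles, followed at 85.2 ± 10.7 CPM per kb and Srsf1, the founding member of the family, at 64.3 ± 4.97 CPM per kb. In the deletion libraries Srsf1 stood highest, at 186 ± 81.5 CPM per kb in DXp and 185 ± 15.2 CPM per kb in DXp_DXm (SD, n = 2 each), with Srsf5 at 123 ± 7.99 and 130 ± 16.9 CPM per kb. The spread of Srsf1 in DXp, and that of Srsf2 in DXp_DXm (157 ± 81.9 CPM per kb), overlapped Srsf5, so that their order there is within the spread of replicates.

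Among hnRNP genes in WT_EV, Hnrnpab, an A/B-type protein, stood highest at 480 ± 57.5 CPM per kb, above Hnrnpa1 at 380 ± 64.1 CPM per kb and Hnrnpf at 101 ± 10.3 CPM per kb. The lowest per length was Hnrnpr at 4.56 ± 0.532 CPM per kb, over 22199 bases of annotated exon. Without the division by length it was not the lowest, at 101 CPM against, for example, 25.7 CPM for Hnrnph3. Hnrnpa1 ranked first in both deletion groups, at 519 ± 342 CPM per kb in DXp and 570 ± 169 CPM per kb in DXp_DXm, with spreads that reached Hnrnpa2b1 (334 ± 77.6 and 373 ± 43.8 CPM per kb) and Hnrnpab (280 ± 69.4 and 414 ± 95.8 CPM per kb). Together the 29 members took 0.927% ± 0.060 of all counts in WT_EV (SD, n = 3), 1.23% ± 0.097 in DXp and 1.50% ± 0.134 in DXp_DXm (SD, n = 2 each).

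**Figure D1:**
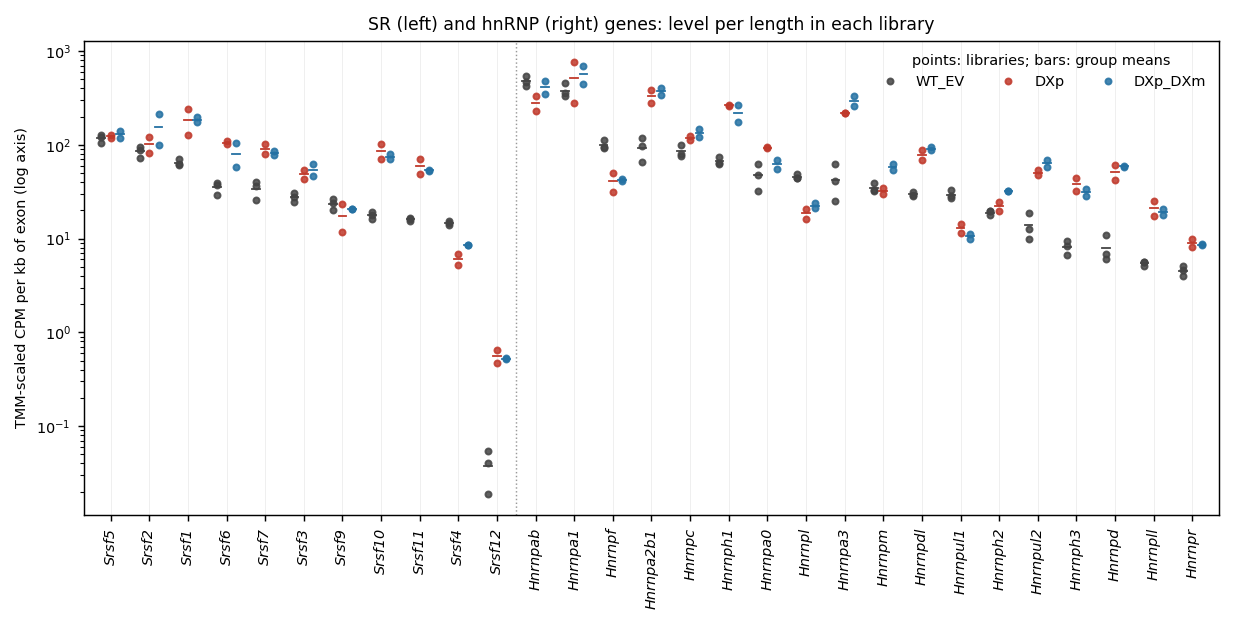
Each point is 1 library's TMM-scaled CPM per kb of exon (log axis) for 1 gene, with SR genes left and hnRNP genes right of the dotted line and bars at the group means (WT_EV n = 3, DXp and DXp_DXm n = 2). Srsf12 lies far below the other members, and the WT_EV points lie apart from the deletion points for most genes, above them for example in Hnrnpf, Hnrnpl, Hnrnpul1 and Srsf4.

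Most SR and hnRNP genes were higher in the libraries with the paternal deletion than in WT_EV. In DXp against WT_EV, 17 of the 29 members rose, 5 fell and 7 did not pass the test, that is 22 of 29 called, where 72.3% of all genes tested were called (32.2% higher, 40.1% lower). The median member change was 0.99 on the log2 scale, against -0.35 over all genes tested. A count of 22 of 29 is near the background and is no result about the members, while by direction more of them were higher and fewer lower than among all genes, a difference that was not tested. Of the SR genes, 7 of 11 rose and 1 fell, with 3 not passed; the hnRNP genes split into 10 higher, 4 lower and 4 not passed of 18. In these bulk samples, fewer cells of a type and less RNA per cell cannot be told apart.

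In the homozygous deletion, 20 of 29 members rose, 4 fell and 5 did not pass, where 66.8% of all genes tested were called (30.9% higher, 36% lower), and the median was 0.99 against -0.15 over all genes. SR genes split into 8 higher, 1 lower and 2 not passed, and hnRNP genes into 12, 3 and 3. Both comparisons use the same 3 WT_EV libraries, so that they are not independent of each other. Libraries of the groups did not overlap in 23 of 29 members for DXp (18 higher, 5 lower), where 82% of all genes tested did not overlap, and in 24 of 29 for DXp_DXm (20 higher, 4 lower), where 78.3% did not. The counts of members called with each library left out are given in the section on processing, beside the shares of all genes.

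**Figure D2:**
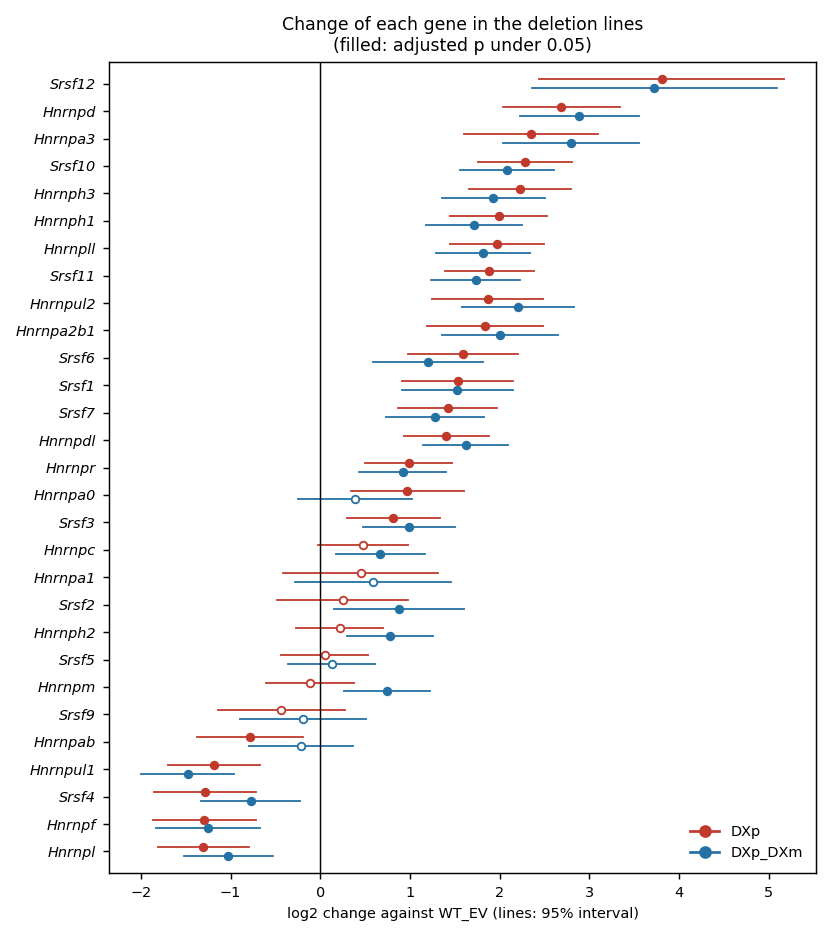
Points are log2 changes of the 29 members against WT_EV in DXp (red) and DXp_DXm (blue), lines their 95% intervals, and filled points passed the adjusted threshold of 0.05. The changes run from 3.81 for Srsf12 in DXp to -1.48 for Hnrnpul1 in DXp_DXm.

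The SR gene with the largest fitted change was Srsf12 (ENSMUSG00000054679), an SR-related repressor of splicing, at chr4:33208991-33233340. Its level was 0.169, 0.127 and 0.06 CPM in the WT_EV libraries, 2.05 and 1.47 CPM in DXp, and 1.62 and 1.69 CPM in DXp_DXm, so that the groups were well apart at a very low level. These levels rest on 3, 3 and 1 reads counted for WT_EV and on 38 to 43 for each deletion library. The ratio of summed counts over scaled library sizes was 14.3 in DXp (exact 95% interval 6.60 to 36.6) and 13.7 in DXp_DXm (6.38 to 35.3), intervals that cover counting error only. Srsf12 passed the filter on low counts only through the deletion libraries and so had to differ; its fitted log2 changes of 3.81 and 3.73 are a description and no test, and its call carries no weight in the counts of members.

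Srsf1 had 357, 399 and 345 CPM in WT_EV, 1393 and 734 CPM in DXp, and 1120 and 998 CPM in DXp_DXm. All 4 deletion libraries exceeded all WT_EV libraries, although the DXp libraries differed widely between themselves. The change was 1.54 (SE 0.28, adjusted p = 0.000673) in DXp and 1.53 (SE 0.28, adjusted p = 0.000835) in DXp_DXm. Srsf10, a relative of Srsf12 that represses splicing when dephosphorylated, rose by 2.28 (SE 0.24) and 2.09 (SE 0.24), and Srsf11 by 1.89 (SE 0.22) and 1.73 (SE 0.22). With the GC and length offsets described below, Srsf1, Srsf10 and Srsf11 did not pass in either comparison, with Srsf11 at 0.41 and 0.46.

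Srsf6 and Srsf7, SR proteins that bind exonic enhancers, rose by 1.59 and 1.42 in DXp and by 1.20 and 1.28 in DXp_DXm (SE 0.25 to 0.27). The DXp_DXm libraries of Srsf6 lay apart, at 500 and 278 CPM, and its change there was 0.80 without replicate 1. With the GC and length offsets described below, neither Srsf6 (-0.05 and -0.19) nor Srsf7 (-0.16 and -0.06) passed in either comparison. Srsf3 had 220, 240 and 193 CPM in WT_EV, 341 and 425 CPM in DXp, and 495 and 368 CPM in DXp_DXm, without overlap. It rose by 0.82 (SE 0.23, adjusted p = 0.00938) and 0.99 (SE 0.23, adjusted p = 0.00376), and without DXp replicate 2 the DXp change of 0.66 had an adjusted p of 0.0663.

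Srsf4 was the SR gene that fell, although with the GC and length offsets described below it was higher in both comparisons (1.53 and 1.78). It had 54.6, 51.8 and 49.7 CPM in WT_EV, 18.4 and 24.2 CPM in DXp, and 30.3 and 30.5 CPM in DXp_DXm, so that every deletion library lay below every WT_EV library. The change was -1.29 (SE 0.25, adjusted p = 0.00114) in DXp and -0.77 (SE 0.25, adjusted p = 0.0185) in DXp_DXm. The DXp_DXm call was lost without WT_EV replicate 1, DXp_DXm replicate 1 or DXp_DXm replicate 2 (adjusted p = 0.0538, 0.0955 and 0.0730). An antisense transcript, Gm12992, covers 43.0% of its exon bases. No source used here gives the strand setting of the counting. Gm12992 had 102 counts over all libraries against 5523 for Srsf4.

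Srsf5, Srsf9 and Srsf2 made up the SR genes that did not pass in DXp. Srsf5 had 490, 513 and 421 CPM in WT_EV, 469 and 514 CPM in DXp, and 471 and 566 CPM in DXp_DXm, with overlapping groups and 95% intervals for the log2 change of -0.43 to 0.53 in DXp and -0.36 to 0.61 in DXp_DXm. Srsf9 was at -0.44 (interval -1.15 to 0.27) in DXp and -0.19 (interval -0.89 to 0.51) in DXp_DXm, and without DXp replicate 2 its change of -1.01 passed (adjusted p = 0.0249). Srsf2 had 0.25 (interval -0.48 to 0.98) in DXp and rose by 0.88 (SE 0.33, adjusted p = 0.0344) in DXp_DXm. That rise rested on DXp_DXm replicate 1, with 636 CPM against 293 CPM in replicate 2 and 217 to 278 CPM in WT_EV. Without DXp_DXm replicate 1 it was 0.30 (adjusted p = 0.428), and it also missed the threshold without any 1 of the WT_EV libraries (adjusted p from 0.0615 to 0.0841) and with replicate numbers as a block (change 0.75, adjusted p = 0.115).

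In the A/B class of hnRNPs, Hnrnpa3 and Hnrnpa2b1, which bind exonic silencers, rose in both deletion groups. Hnrnpa3 had 137, 221 and 333 CPM in WT_EV, 1175 and 1174 CPM in DXp, and 1809 and 1388 CPM in DXp_DXm. No deletion library came near the WT_EV range, and the changes were 2.35 (SE 0.34, adjusted p = 0.000144) and 2.79 (SE 0.34, adjusted p = 7.16e-05). With the GC and length offsets described below, Hnrnpa3 passed in DXp_DXm (1.31) but not in DXp (0.40). Hnrnpa2b1 rose by 1.84 (SE 0.29) and 2.0 (SE 0.29). It did not pass with the GC and length offsets described below (0.20, adjusted p = 0.525, and 0.61, adjusted p = 0.0731). Hnrnpa1 had 1115, 1429 and 1051 CPM in WT_EV, 2398 and 873 CPM in DXp, and 1420 and 2176 CPM in DXp_DXm. The DXp libraries fell on either side of WT_EV, and its changes of 0.45 (interval -0.42 to 1.32) and 0.59 (interval -0.28 to 1.45) did not pass, except that DXp passed without DXp replicate 2 (1.01, adjusted p = 0.0207).

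Hnrnpab had 1507, 1313 and 1190 CPM in WT_EV, 641 and 914 CPM in DXp, and 1341 and 965 CPM in DXp_DXm. It fell in DXp (-0.78, SE 0.27, adjusted p = 0.0225), where all libraries lay below WT_EV, and missed the threshold in DXp_DXm (-0.21, interval -0.79 to 0.37), where the groups overlapped. The DXp call was lost without DXp replicate 1 (-0.43, adjusted p = 0.241) and without WT_EV replicate 1 (-0.71, adjusted p = 0.0612), with DESeq2 (-0.65, adjusted p = 0.0594) and with the GC and length offsets described below (-0.23, adjusted p = 0.413). On the opposite strand, Phykpl covers 29.1% of the exon bases of Hnrnpab, with 2885 counts against 170864. Hnrnpa0 rose in DXp (0.97, SE 0.28, adjusted p = 0.0107) and missed the threshold in DXp_DXm (0.38, interval -0.25 to 1.02).

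Hnrnpd (AUF1), which binds AU-rich elements and governs the decay of their mRNAs, had the second largest rise of all members. It had 44.9, 50.8 and 80.8 CPM in WT_EV, 448 and 310 CPM in DXp, and 441 and 432 CPM in DXp_DXm, with every deletion library far above WT_EV. The changes were 2.69 (SE 0.29, adjusted p = 2.56e-05) and 2.89 (SE 0.30, adjusted p = 2.75e-05). With the GC and length offsets described below, Hnrnpd passed in DXp_DXm (1.19) but not in DXp (0.57). Its relative Hnrnpdl, which lies near it on chromosome 5, rose by 1.40 (SE 0.21) and 1.62 (SE 0.21).

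The F/H class binds runs of guanines, and its members went different ways. Hnrnph1 rose by 1.99 (SE 0.24) in DXp and 1.72 (SE 0.24) in DXp_DXm, and Hnrnph3 by 2.23 (SE 0.26) and 1.93 (SE 0.26). Hnrnpf fell: it had 292, 285 and 342 CPM in WT_EV, 153 and 96.7 CPM in DXp, and 130 and 127 CPM in DXp_DXm. Its deletion libraries all lay below WT_EV, with changes of -1.29 (SE 0.26, adjusted p = 0.00128) and -1.25 (SE 0.26, adjusted p = 0.00181).

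Hnrnph2, a close paralog of Hnrnph1, is the 1 member on the X chromosome (chrX:134601179-134607060), the chromosome that Xist silences. It had 77.3, 85.4 and 85.7 CPM in WT_EV, 107 and 85.4 CPM in DXp, and 142 and 142 CPM in DXp_DXm. DXp overlapped WT_EV (0.22, interval -0.27 to 0.70), and both DXp_DXm libraries lay above all others (0.78, SE 0.22, adjusted p = 0.00935). With the GC and length offsets described below, Hnrnph2 was lower than in WT_EV in both comparisons (-1.58 and -0.68).

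Hnrnpl, which binds CA repeats, fell while its paralog Hnrnpll, known from the splicing of CD45 in T cells, rose. Hnrnpl had 264, 291 and 262 CPM in WT_EV, 123 and 97.5 CPM in DXp, and 126 and 142 CPM in DXp_DXm, and no deletion library reached the lowest WT_EV library. Its changes were -1.30 (SE 0.23, adjusted p = 0.000528) and -1.02 (SE 0.22, adjusted p = 0.00256). Hnrnpll had 60.2, 66.1 and 65.4 CPM in WT_EV, 296 and 205 CPM in DXp, and 207 and 243 CPM in DXp_DXm, and rose by 1.97 (SE 0.23, adjusted p = 4.19e-05) and 1.82 (SE 0.23, adjusted p = 9.88e-05). With the GC and length offsets described below, neither passed in either comparison: Hnrnpl stood at 0.26 and 0.27, and Hnrnpll at 0.48 (adjusted p = 0.0921) and 0.56 (adjusted p = 0.0635).

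Another pair of paralogs, Hnrnpul1 and Hnrnpul2, which act in the response to DNA damage, also split. Hnrnpul1 had 285, 246 and 235 CPM in WT_EV, 125 and 100 CPM in DXp, and 86.3 and 97.1 CPM in DXp_DXm. All deletion libraries lay below WT_EV, with changes of -1.18 (SE 0.23, adjusted p = 0.00108) and -1.48 (SE 0.23, adjusted p = 0.000355). With the GC and length offsets described below, Hnrnpul1 did not pass in either comparison (0.14 and -0.36). Hnrnpul2 had 71.1, 134 and 90.2 CPM in WT_EV, 337 and 382 CPM in DXp, and 416 and 495 CPM in DXp_DXm. It rose, without overlap, by 1.87 (SE 0.28, adjusted p = 0.000192) and 2.21 (SE 0.28, adjusted p = 9.28e-05).

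Hnrnpc, which binds uridine tracts, had 333, 344 and 427 CPM in WT_EV, 486 and 537 CPM in DXp, and 644 and 525 CPM in DXp_DXm. Although no deletion library overlapped WT_EV, the change of 0.47 in DXp did not pass (SE 0.22, adjusted p = 0.0797), and that of 0.67 in DXp_DXm did (SE 0.22, adjusted p = 0.0227). Both stood near the threshold: DXp passed with RLE scaling (0.63, adjusted p = 0.0289), without WT_EV replicate 3 (adjusted p = 0.0445) and without DXp_DXm replicate 1 (adjusted p = 0.0498), and DXp_DXm was lost without WT_EV replicate 1, WT_EV replicate 2 or DXp_DXm replicate 1 (adjusted p = 0.0811, 0.0899 and 0.0941). With the GC and length offsets described below, Hnrnpc was lower in both comparisons (-1.04 and -0.64). Hnrnpr had 102, 113 and 89.3 CPM in WT_EV, 219 and 182 CPM in DXp, and 194 and 189 CPM in DXp_DXm. The groups did not overlap, and it rose by 0.99 (SE 0.22, adjusted p = 0.00226) and 0.92 (SE 0.22, adjusted p = 0.00387). The offsets turned Hnrnpr to lower in both comparisons (-1.39 and -0.84).

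No member passed the test between the homozygous and the paternal deletion in edgeR without a replicate block, where 0.444% of all genes tested were called (0.28% higher, 0.163% lower). At an unadjusted p under 0.05 there were 2 members, where 20.8% of all genes tested were, and DESeq2 called 0, where it called 3.78% of all genes. The median member change was 0.14, against 0.02 over all genes, and the ends of the 95% intervals of the 29 members lay between -1.34 and 1.44, so that differences of up to about these sizes are within the intervals. Libraries did not overlap in 9 of 29 members (7 higher and 2 lower in DXp_DXm), where 50.4% of all genes tested did not overlap.

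The lowest p belonged to Hnrnpm, a protein of the spliceosomal complex that also regulates alternative exons. Hnrnpm had 259, 260 and 313 CPM in WT_EV, 277 and 236 CPM in DXp, and 497 and 431 CPM in DXp_DXm. Both DXp_DXm libraries lay above all 5 others, with a difference from DXp of 0.86 (interval 0.32 to 1.39, adjusted p = 0.0991) and a rise over WT_EV of 0.74 (SE 0.22, adjusted p = 0.0116), which had an adjusted p of 0.0556 without WT_EV replicate 2. With the GC and length offsets the rise over WT_EV was 0.26 (adjusted p = 0.346), and 0.36 (adjusted p = 0.261) with the replicate block as well. On the same strand, March2 shares 14.7% of the exon bases of Hnrnpm, with 1099 counts against 50493. Hnrnph2 (0.56, interval 0.02 to 1.09), Hnrnpab (0.57, interval -0.07 to 1.20) and Srsf4 (0.51, interval -0.08 to 1.11) followed, with adjusted p of 0.221, 0.289 and 0.306.

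**Figure D3:**
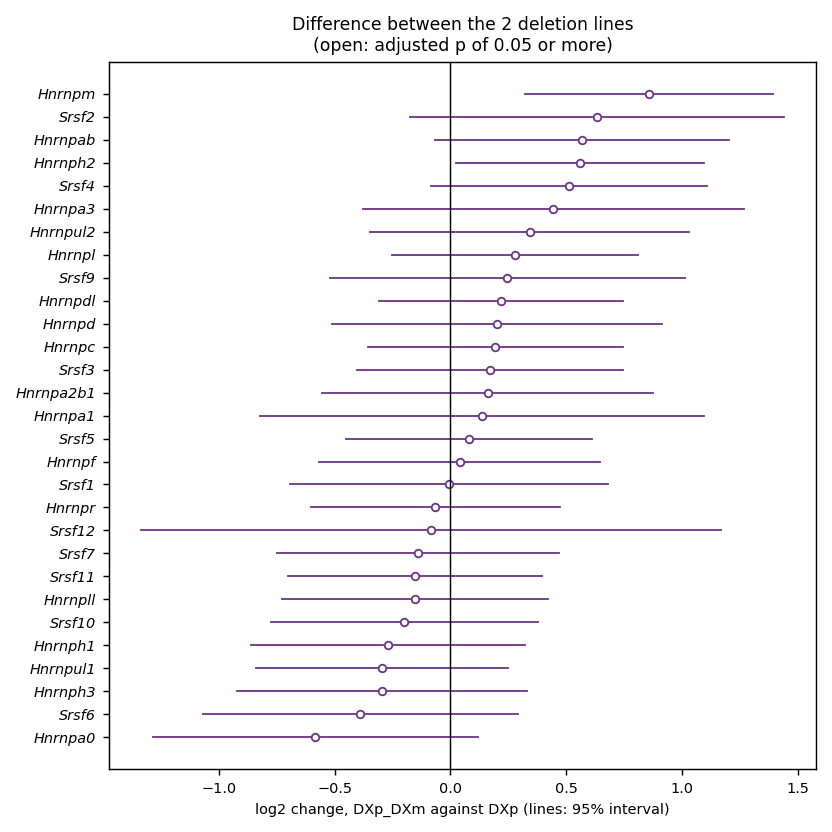
Log2 differences of the 29 members between DXp_DXm and DXp are plotted with their 95% intervals, all open because none passed the adjusted threshold of 0.05. The points run from -0.58 for Hnrnpa0 to 0.86 for Hnrnpm, and the interval of Srsf12 is the widest.

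Changes against WT_EV fell with the GC content of the transcript, among the members as among all genes. Pearson's r between the change and the GC content was -0.63 (Spearman's rho -0.55) over the 29 members in DXp and -0.64 (rho -0.55) in DXp_DXm, and -0.60 and -0.57 over 15311 genes with a GC value. These are descriptions across genes that share libraries and are not replicates. Of the 8 members under 42% GC, 7 rose in DXp and 8 in DXp_DXm, against 67.4% and 62.7% of all genes in that class. Among the 10 members from 42% to 46%, 7 and 8 rose and 0 fell. Of all genes in that class, 63.0% and 62.7% rose, and 9.65% and 8.31% fell. Of the 6 members from 46% to 50%, 2 rose and 2 fell in DXp, and 4 rose and 1 fell in DXp_DXm. Of all genes there, 34.7% rose and 23.0% fell in DXp, and 33.9% and 13.9% did in DXp_DXm. Of the 5 members at 50% or more (Hnrnpa0, Hnrnpl, Hnrnpul1, Srsf4 and Srsf9), 3 fell in each comparison, against 70.7% and 65.6% of all genes in the class. Hnrnpa0 rose in DXp, where 6.64% of all genes in the class rose. The median change of these 5 members was -1.18 in DXp and -0.77 in DXp_DXm, against -2.52 and -2.03 for all genes there.

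**Figure D4:**
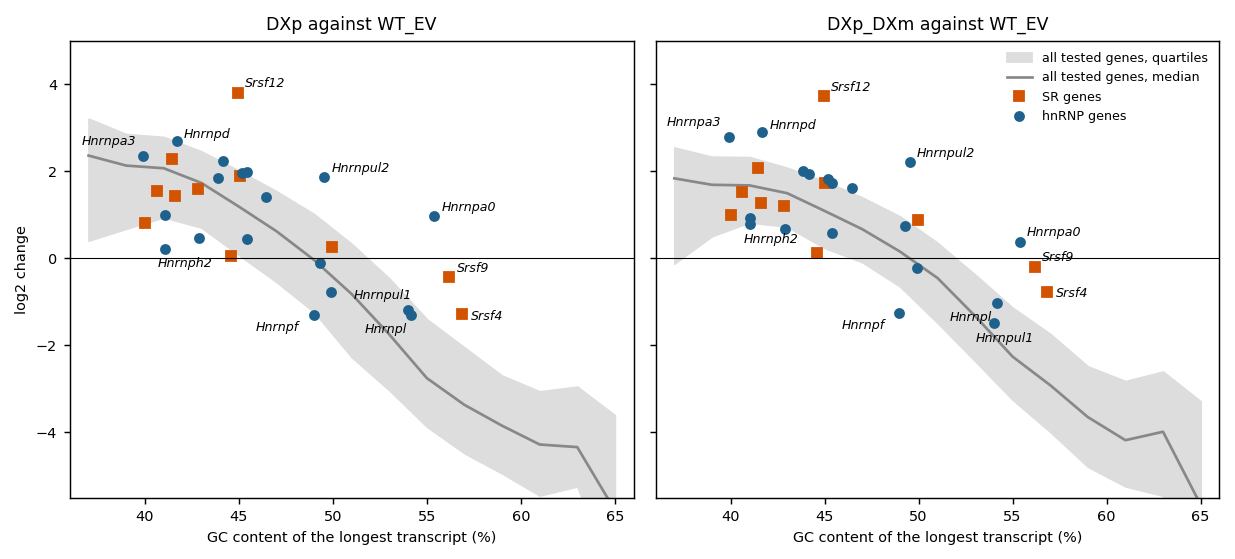
Log2 change against WT_EV is plotted over transcript GC content for SR genes (squares) and hnRNP genes (circles), with the median (line) and quartiles (band) of all genes tested in classes of GC content. Most members lie within or near the band, while Srsf12, Hnrnpul2, Hnrnpa0, Srsf9 and Srsf4 lie above it in both comparisons, and Hnrnph2 lies below it in DXp.

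The fit was repeated with offsets that take out, library by library, a smooth dependence on GC content and exon length estimated over all genes. With the offsets, 9 members were higher, 6 lower and 14 not passed in DXp, where 50% of all genes were called (23.7% higher, 26.3% lower), and the median member change fell from 0.99 to 0.20, against -0.09 over all genes. In DXp_DXm 11 were higher, 5 lower and 13 not passed, where 41.9% of all genes were called (20.5% higher, 21.4% lower), and the median was 0.37 against -0.02. Between the deletion groups 0 members were called with edgeR, where 0.209% of all genes were called (0.124% higher, 0.0849% lower), with 5 at an unadjusted p under 0.05, where 18.8% of all genes were.

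Of the 17 members that rose in DXp, 6 were higher with the offsets, 9 did not pass and 2 were lower. Of the 20 that rose in DXp_DXm, 8 were higher, 9 did not pass and 3 were lower. Over all genes tested, the share called fell from 72.3% to 50% in DXp and from 66.8% to 41.9% in DXp_DXm. How calls moved with the offsets was not counted over all genes, so these splits are no result about the members. Srsf12, Hnrnph1, Hnrnph3, Hnrnpdl and Hnrnpul2 were higher with and without offsets in both comparisons. With the offsets they stood at 3.0, 0.80, 1.22, 0.63 and 1.63 in DXp and 2.95, 0.63, 1.0, 0.83 and 1.83 in DXp_DXm. Srsf12 is included in these counts, but it passed the filter only through the deletion libraries and its call carries no weight. Hnrnpf was the 1 member lower with and without offsets in both (-1.07 and -1.31). With a block on replicate numbers beside the offsets, Hnrnph1 did not pass in either comparison (adjusted p = 0.0544 and 0.145) and Hnrnpdl did not in DXp (adjusted p = 0.0863). Hnrnpd and Hnrnpa3 kept their call in DXp_DXm (1.19 and 1.31) and lost it in DXp (0.57, adjusted p = 0.0682, and 0.40, adjusted p = 0.282).

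The offsets reversed the direction of called members. Srsf4 went from -1.29 to 1.53 in DXp (adjusted p = 0.000638) and from -0.77 to 1.78 in DXp_DXm (adjusted p = 0.000514), against its CPM, which was lower in all 4 deletion libraries. Hnrnpr went from 0.99 to -1.39 and from 0.92 to -0.84, and Srsf3 from 0.82 to -1.41 in DXp. In DXp_DXm, Hnrnpc went from 0.67 to -0.64 and Hnrnph2 from 0.78 to -0.68, each passing in both fits. Hnrnpl and Hnrnpul1, lower without the offsets, did not pass with them in either comparison (Hnrnpl at 0.26 and 0.27, Hnrnpul1 at 0.14 and -0.36), and Srsf1 and Srsf10 did not pass either. Of the 7 members that did not pass in DXp, 5 did with the offsets: Srsf9 (2.64) and Srsf2 (0.79) higher, and Hnrnph2 (-1.58), Hnrnpc (-1.04) and Srsf5 (-1.02) lower. The share of all genes that did so was not counted. Hnrnpa0 went from 0.97 to 3.49 in DXp and from 0.38 to 2.54 in DXp_DXm, the latter with CPM ranges that overlap WT_EV. The direction of these members thus depends on whether the relation with GC content and length is taken out, and which fit is nearer to the levels in the cells was not tested.

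**Figure D5:**
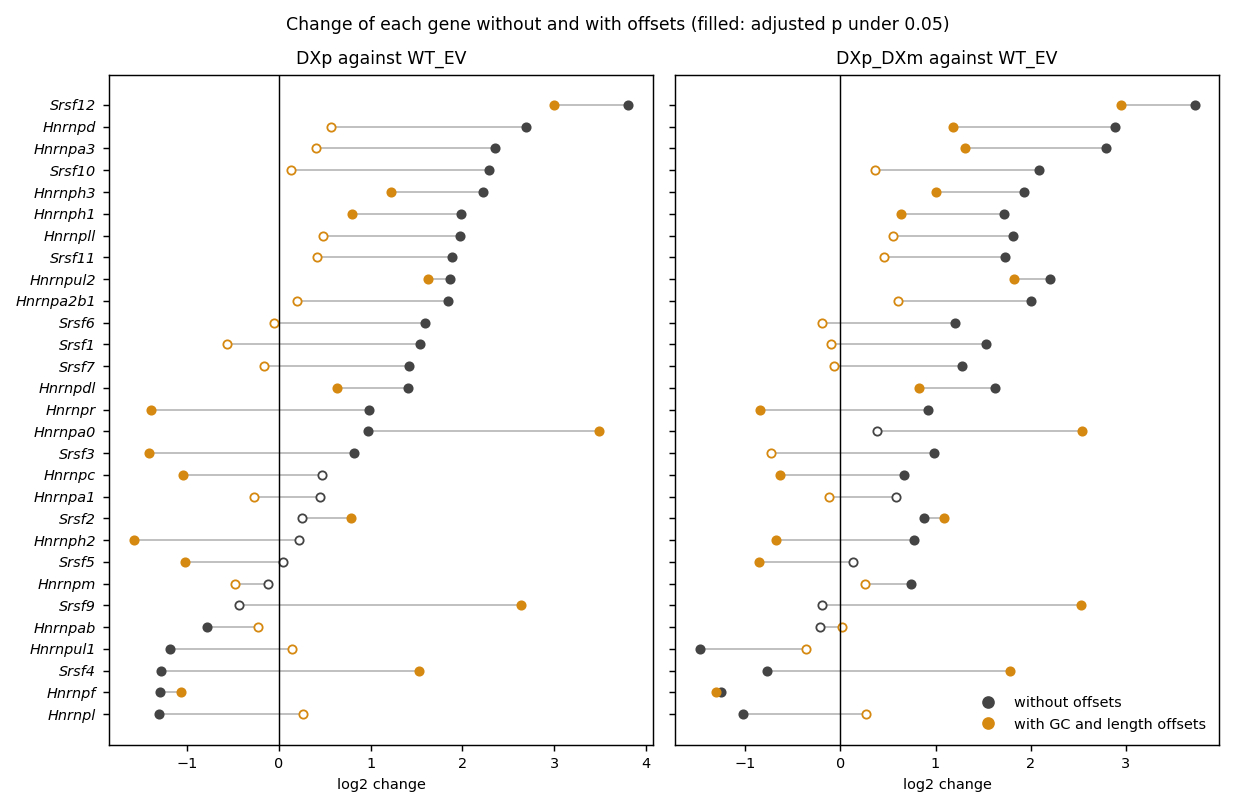
For each member, the log2 change against WT_EV without offsets (dark) is joined to that with GC and length offsets (orange), and filled points passed the adjusted threshold of 0.05. Most points above 1 move toward 0 with the offsets, while Srsf4, Srsf9 and Hnrnpa0 move upward to between 1.53 and 3.49.

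The genes around SR and hnRNP proteins in the splicing pathway were described from fixed lists. Of 10 tested SR protein kinases and import receptors, which phosphorylate the arginine-serine tails and carry SR proteins into the nucleus, 5 rose and 4 fell in DXp, and 6 rose and 3 fell in DXp_DXm. Over all genes tested, 32.2% rose and 40.1% fell in DXp, and 30.9% rose and 36% fell in DXp_DXm. Of these 10 genes, 3 rose and 3 fell in DXp with the offsets, and 3 rose and 2 fell in DXp_DXm. Of all genes, 23.7% rose and 26.3% fell in DXp with the offsets, and 20.5% and 21.4% did in DXp_DXm. Clk1, a nuclear kinase that releases SR proteins from speckles, rose from 89.2 ± 14.4 CPM in WT_EV (SD, n = 3) to 699 ± 278 in DXp and 505 ± 177 in DXp_DXm (SD, n = 2), changes of 2.97 (SE 0.32) and 2.50 (SE 0.32). The offsets left 0.72 in each (adjusted p = 0.0304 and 0.0349). Tnpo1, an import receptor of hnRNP proteins such as Hnrnpa1, rose by 1.92 and 1.59 and did not pass with the offsets (-0.39 and -0.18).

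Among 20 SR-related proteins, 12 rose and 3 fell in DXp, and 12 rose and 2 fell in DXp_DXm, and with the offsets 4 rose and 4 fell, and 4 rose and 2 fell. Of 25 tested other RNA-binding splicing regulators, 16 rose and 4 fell, and 19 rose and 4 fell, and with the offsets 7 and 4, and 6 and 3. Beside both lists, 32.2% of all genes tested rose and 40.1% fell in DXp, and 30.9% and 36% did in DXp_DXm. With the offsets, 23.7% of all genes rose and 26.3% fell in DXp, and 20.5% and 21.4% did in DXp_DXm. Ptbp1, the polypyrimidine tract binding protein, had 610 ± 130 CPM in WT_EV, 94.4 ± 17.9 in DXp and 89.2 ± 2.90 in DXp_DXm. Its log2 change in DXp_DXm was -2.77, while its paralog Ptbp3 rose by 2.92 in DXp and 2.17 in DXp_DXm. With the offsets, Ptbp1 stood at -1.49 in DXp_DXm (adjusted p = 0.00188). Ptbp3 stood at 0.75 in DXp (adjusted p = 0.0116) and 0.58 in DXp_DXm (adjusted p = 0.0412). Esrp1 was the 1 gene of all 6 lists called between the deletion groups, where 0.444% of all genes tested were called. It had 0.0962 ± 0.0868 CPM in WT_EV, 0.218 ± 0.198 in DXp and 45.6 ± 25.3 in DXp_DXm. At these levels it passed the filter on low counts only through DXp_DXm and so had to differ. Its call is a description and no test.

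Of 17 U1, U2AF and SF3 genes, the machinery that reads splice sites, 13 fell and 3 rose in DXp, and 9 fell and 3 rose in DXp_DXm, where 40.1% and 36% of all genes tested fell, with medians of -1.65 and -0.96 against -0.35 and -0.15. With the offsets 10 fell, 3 rose and 4 did not pass in DXp, and 6, 4 and 7 in DXp_DXm, where 26.3% and 21.4% of all genes fell. U2af2, the subunit that binds the polypyrimidine tract and is recruited by SR proteins, had 248 ± 52.9 CPM in WT_EV, 10.5 ± 2.13 in DXp and 13.8 ± 3.30 in DXp_DXm, changes of -4.56 (SE 0.34) and -4.17 (SE 0.33), and of -1.96 and -1.83 with the offsets. Of 8 Sm core genes, 5 fell and 3 rose in each comparison, and 5 fell and 1 rose with the offsets. Of 10 genes of nonsense-mediated decay, the pathway that clears poison-exon transcripts, 3 rose and 5 fell in DXp, and 3 rose and 4 fell in DXp_DXm. With the offsets, 2 of them rose and 4 fell in DXp, and 1 rose and 3 fell in DXp_DXm. Beside these lists, 32.2% of all genes tested rose and 40.1% fell in DXp, and 30.9% and 36% did in DXp_DXm. With the offsets, 23.7% of all genes rose and 26.3% fell in DXp, and 20.5% and 21.4% did in DXp_DXm. Upf1, its core helicase, fell from 164 ± 8.53 CPM to 17.4 ± 0.120 in DXp and 13.7 ± 1.44 in DXp_DXm (-3.24 and -3.57, SE 0.25 each), and with the offsets stood at -0.33 (adjusted p = 0.218) and -0.83 (adjusted p = 0.0135).

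RefSeq (GRCm38.p6) gave a promoter entry for 27 of the 29 members, and the 250 bases upstream of the start had a median GC content of 68% (46% to 81.2%) against 52.4% over all entries. For 16 of the 27, the 30 bases after the RefSeq start lie in the longest GENCODE transcript, and for the others they do not. With both strands searched, the CCAAT box (CCAAT) was found in 15 of 27 members (55.6%) and in 37.5% of all genes, the ETS core (CCGGAA) in 10 (37.0%) and 13.6%, the NRF1 core (CGCATGC) in 4 (14.8%) and 3.43%, and the TATA box (TATAAA) in 3 (11.1%) and 14.3%. A gene was counted if any of its entries had a match. The 27 members had 39 entries and the 27025 genes 32851, so that members had more entries per gene, which the percentages do not allow for. These matches are letters and not sites of binding. The windows of 1 gene that rose, Hnrnpa2b1 (chr6:51469895-51470144, minus strand), and 1 that fell, Hnrnpul1 (chr7:25754760-25755009, minus strand), are shown with CCAAT box and ETS core matches in capitals, on either strand. They were chosen after the values were seen.
Hnrnpa2b1: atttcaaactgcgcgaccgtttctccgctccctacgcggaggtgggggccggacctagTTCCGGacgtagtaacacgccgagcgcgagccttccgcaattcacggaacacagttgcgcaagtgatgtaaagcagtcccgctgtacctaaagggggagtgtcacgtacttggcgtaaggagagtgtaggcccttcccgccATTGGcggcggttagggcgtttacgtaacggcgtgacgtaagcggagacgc
Hnrnpul1: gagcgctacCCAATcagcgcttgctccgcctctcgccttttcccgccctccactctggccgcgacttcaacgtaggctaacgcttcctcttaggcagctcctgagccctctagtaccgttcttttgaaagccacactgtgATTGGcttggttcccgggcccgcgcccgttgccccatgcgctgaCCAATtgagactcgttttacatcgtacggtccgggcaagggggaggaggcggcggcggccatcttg
Hnrnpa2b1 has 1 CCAAT box and 1 ETS core in this window, and Hnrnpul1 has 3 CCAAT boxes and 0 ETS cores. Neither gene passed with the GC and length offsets in either comparison. Whether these matches bear on the changes was not tested.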

How the data were processed

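RNA from 7 XEN cell libraries (3 WT_EV, 2 DXp, 2 DXp_DXm) was analysed from the raw counts per gene that the authors deposited. Per the submitters' processing notes, the tools were FastQC, STAR 2.7.9a and featureCounts 2.0.1 with GRCm38 (mm10). No source used here gives the annotation release, the strand setting or the handling of multiply mapped reads, and per the labels' protocols a stranded kit of 1 of 2 makes was used. The 2 WT_clone libraries were not analysed here. Samples were grouped by their titles. For DXp, the 2 numbers within each title are opposite, and the replicate number at the end of the title was used.

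Of 55401 genes, 55141 matched a GENCODE M21 symbol and 54821 had the same start and end, all 29 members among them. edgeR 4.0.16 (R 4.3.3) removed 40070 genes with low counts (filterByExpr), scaled by TMM, fitted all 7 libraries with a robust quasi-likelihood model, and adjusted p-values (Benjamini-Hochberg) over 15331 genes. The biological coefficient of variation was 33.7%. Intervals are 95% from the moderated test. GC and length offsets came from smooth terms per library (mgcv 1.9.3) on log2 CPM with a prior count of 2, with TMM factors recomputed. The members, the gene lists and the rule for genes described in full were chosen with earlier results of these data known. That rule took the 3 highest and 3 lowest called changes against WT_EV, the 4 lowest p between the deletions, calls that changed direction with offsets, and the highest level per length. From each list, up to 3 genes with the lowest p were eligible. Alternatives were DESeq2 1.42.0, RLE scaling, protein-coding genes without histones, no filter, offsets, a replicate block, and leaving out each library.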

Additional observations from a re-analysis of the deposited data

How the results depend on the processing

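The counts of called members moved little with the test, scaling or filter: 21 to 23 in DXp and 24 in DXp_DXm with DESeq2, RLE scaling, protein-coding genes without histones or no filter, and 0 between the deletion groups in each of these, where the share of all genes called ran from 39.3% to 75.2%, 36.4% to 69.4% and 0.45% to 5.18%. Leaving out 1 library gave 21 to 23 members in DXp, 21 to 24 in DXp_DXm and 0 between the deletions, beside 59.7% to 73.1%, 53.5% to 67.3% and 0.0124% to 3.19% of all genes. A group left with 1 library is assumed to vary like the others. The median change in DXp over 15331 genes was -0.35 with TMM and -0.20 with RLE, and over the 27732 genes tested with no filter it was -0.11 with TMM and 0.00 with DESeq2. With GC and length offsets the counts were 15, 16 and 0, where 50%, 41.9% and 0.209% of all genes were called. Of 48 changes of the 16 members described in full, 17 turned direction with a call in at least 1 of the fits compared, 6 more (such as Hnrnpa1, to -0.27 and -0.12) turned without passing in either, and the cause was not tested beyond the relation with GC content. In DXp these were Hnrnpc -1.04, Hnrnph2 -1.58, Hnrnpl 0.26, Hnrnpr -1.39, Hnrnpul1 0.14, Srsf1 -0.56, Srsf3 -1.41, Srsf4 1.53 and Srsf5 -1.02. In DXp_DXm they were Hnrnpc -0.64, Hnrnph2 -0.68, Hnrnpl 0.27, Hnrnpr -0.84, Srsf1 -0.10, Srsf3 -0.73, Srsf4 1.78 and Srsf5 -0.85. The share of all genes that turned was not counted, and calls that turned were among the reasons for describing a member in full.

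The replicate numbers used here did not pair the libraries: same-numbered libraries had correlations of their deviations from -0.20 to 0.057. With the other number in the DXp titles, same-numbered DXp and DXp_DXm libraries had a correlation of 0.20. Which of the numbers is right is not known. With the replicate block, 22, 23 and 0 members and 69.4%, 63.1% and 0.6% of all genes were called. With the block and the offsets together, 13, 13 and 0 members and 45.3%, 35.9% and 0.398% of all genes were called. By the same rule 17 changes turned direction, and 5 more passed in neither fit: in DXp Hnrnpc -0.98, Hnrnph2 -1.63, Hnrnpl 0.29, Hnrnpr -1.59, Hnrnpul1 0.14, Srsf1 -0.70, Srsf3 -1.55, Srsf4 1.61 and Srsf5 -1.14, and in DXp_DXm Hnrnpc -0.58, Hnrnph2 -0.72, Hnrnpl 0.31, Hnrnpr -1.04, Srsf1 -0.23, Srsf3 -0.88, Srsf4 1.87 and Srsf5 -0.98. Because same-numbered DXp and DXp_DXm libraries were correlated at -0.20, a block with the DXp numbers crossed, which is the other number in the DXp titles, was added after seeing the data. It called 23, 24 and 1 members, the last being Hnrnpm (adjusted p = 0.0330), beside 73.4%, 68.1% and 10.3% of all genes (1573 against 68 between the deletions).

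Depth limits Srsf12, with 1 to 3 counts in each WT_EV library, and 2 libraries per deletion limit the intervals of every member. Counts per gene do not separate isoforms.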
